A study of Macaca nemestrina with 15 samples.

Results

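The genes of MHC class II antigen presentation, 15 in all, were followed in peripheral blood mononuclear cells (PBMCs) of pig-tailed macaques given islatravir (ISL), a nucleoside reverse transcriptase translocation inhibitor. The members were CIITA, RFX5, RFXAP, RFXANK, CD74, CTSS and IFI30, plus every feature of the count table whose name begins as a class II gene of human or macaque. That name search added 8 features, HLA.DRA, HLA.DPA1, HLA.DPB1, HLA.DQA1, HLA.DQB1, HLA.DMA, HLA.DOA and HLA.DOB, spelled here as in the table. The 15 members were picked by name from 28865 features, though with earlier results of these data known. All 15 were among the 12880 features that passed the filter on low counts. The study compared 5 libraries taken before treatment, 5 at week 12 of weekly oral ISL at 30 mg/kg, and 5 at week 18, after dosing had ended. The same 5 female animals (Z15228, Z13076, Z15339, Z15303 and Z15408) gave a library at each time point, 15 in all. No untreated animals were among the samples, so treatment and the passage of time cannot be told apart.

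MHC class II molecules are pairs of α and β chains (DR, DP and DQ) that display peptides from engulfed proteins to CD4 T-cells. In blood they are carried mainly by B-cells, monocytes and dendritic cells. The invariant chain CD74 holds the groove of a new molecule until CTSS, cathepsin S, trims it in the endosome; DM then exchanges the remaining fragment for a peptide and DO, made chiefly in B-cells, restrains DM. IFI30, a thiol reductase, opens the disulfide bonds of the proteins to be cut. Transcription of the chains, CD74 and DM is controlled by the RFX complex (RFX5, RFXAP and RFXANK), bound at their promoters, and by the coactivator CIITA, whose level sets which cells make class II.

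The libraries held 5610597 to 10379572 counts each, and 15717 to 16556 features were detected in each. Counting error was small for HLA.DRA, with 10195 to 35664 counts per library, and for CD74, with 49915 to 141978. Other rows were shallower: in the week 12 library of Z13076, HLA.DQA1 and HLA.DQB1 had 231 counts each, HLA.DOA 127 and HLA.DOB 77. Counting error was largest for RFXAP, with 15 to 59 counts. T-cell, monocyte and platelet transcripts marked the tissue as PBMCs with platelets: CD3D ranged from 355 to 634 counts scaled to the library total (CPM), CD14 from 246 to 1148 CPM and the platelet gene PPBP from 1247 to 4440.0 CPM. The B-cell gene MS4A1, which encodes CD20, ranged from 10.4 to 179 CPM. The library names hold dates but do not say which step the dates mark. By these dates, an animal's second library followed its first by 56 or 57 days. The last followed the second by 27 or 28 days, while the labelled weeks are 12 and 18. The time since the last dose is stated differently within the study's text and is not given here. Z15339, Z15303 and Z15408 share their dates at every time point, and the other 2 animals share theirs with no other animal.

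The 15 members together took 1.07 to 2.45% of a library's counts (median 1.63%), and CD74 alone took 0.617 to 1.65%. Levels below are CPM of the library total. Gene lengths were not available, so levels are compared between animals and time points and not between genes.

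The most pronounced feature of several members was a difference between animals that lasted through all 3 time points. HLA.DQB1, the β chain of DQ, was at 170.4 CPM in Z15228, 66.1 in Z13076, 260.4 in Z15339, 301 in Z15303 and 111 in Z15408 before treatment. It was at 152, 27.9, 263, 313 and 135 CPM at week 12 in the same order of animals, and at 172, 61.3, 349.8, 281 and 105 CPM at week 18. Z15303 and Z15339 were thus the 2 highest and Z13076 the lowest at each time. HLA.DQA1, the partner chain, was also highest in Z15303 and Z15339 each time, at 129 to 191 CPM against 27.9 to 100.2 CPM in the other 3 animals.

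The DP chains ordered the animals differently. HLA.DPB1 was at 859 CPM in Z15228, 1039.7 in Z13076, 219.7 in Z15339, 587 in Z15303 and 375 in Z15408 before treatment, a 4.73-fold range. At week 12 its values in the same order were 858, 620.4, 266, 694 and 495 CPM, and at week 18 they were 960.1, 1066, 361, 593 and 423 CPM. Its partner chain HLA.DPA1 spanned only a 1.87-fold range before treatment, from 736 CPM in Z15339 to 1379 CPM in Z13076. The ratio of HLA.DPB1 to HLA.DPA1 counts therefore separated the animals: it was 0.299 to 0.408 in all 6 libraries of Z15339 and Z15408 and 0.588 to 0.818 in the 9 libraries of the others.

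Differences between the 5 animals held 91.7% of the variance of log2 CPM for HLA.DQB1, 89.2% for HLA.DOB, 88.1% for HLA.DPB1 and 83.9% for HLA.DQA1, against a median of 51.9% over all features tested. Of all features tested, 1.73%, 3.04%, 3.7% and 6.69% respectively had a share as large. At the other end stood IFI30 with 22.3% and CTSS with 36.7%. The median over the 15 members was 55.2%, close to that of all features. Class II chains vary in sequence between animals and have near-identical copies, and reads of an allele unlike the reference may be counted in part or not at all, which was not tested. The levels of these chains in one animal against another are therefore uncertain, while changes within an animal compare the same alleles.

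**Figure D1:**
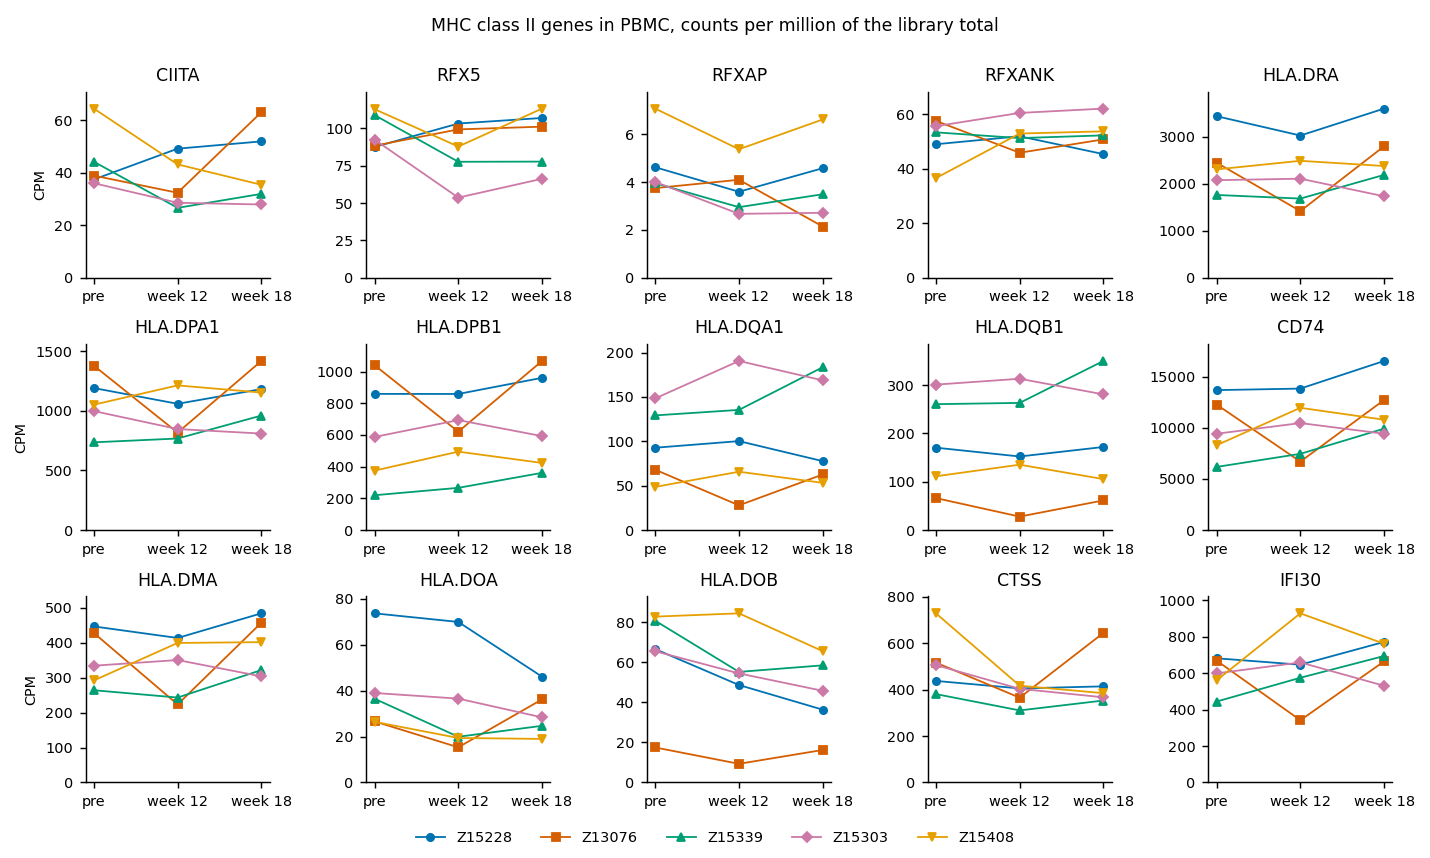
Level of each of the 15 class II genes (CPM of the library total, each panel on its own scale from 0) before treatment, at week 12 and at week 18, with a line for each of the 5 animals. Z15303 and Z15339 are highest in HLA.DQB1 and HLA.DQA1 at all times, Z15339 is lowest in HLA.DPB1 and Z13076 in HLA.DOB, and Z13076 has its lowest value at week 12 in every chain that binds peptide, 27.9 CPM for HLA.DQB1.

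No member changed past the threshold in any comparison. By edgeR's quasi-likelihood test with Benjamini-Hochberg adjustment over the 12880 features, 0 of 15 members and 0% of all features reached an adjusted p of 0.05 at week 12 vs. pre-treatment, at week 18 vs. pre-treatment or at week 18 vs. week 12. Without adjustment, 207, 218 and 65 features had p under 0.05 in these comparisons, and 1, 0 and 0 of them were members. They made up 1.09% of all features in the lower and 0.52% in the higher direction at week 12, 1.08% and 0.613% at week 18, and 0.225% and 0.28% for week 18 vs. week 12. With the animal as a block, which takes out the differences between animals described above, 1, 1 and 0 features passed (0.00776%, 0.00776% and 0%) and again no member did. The smallest adjusted p of a member was then 0.769 (CTSS) at week 12 and 0.62 (HLA.DOB) at week 18. The ranges of the 5 libraries overlapped between time points for all 15 members in every comparison, as they did for all but 0.318%, 0.326% and 0.109% of the features tested. The 2 comparisons with pre-treatment share their control libraries.

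Below the threshold, the members leaned differently at the 2 later times. At week 12, 11 of 15 members had a negative log2 fold change, against 49% of all features, and their median was −0.17 against 0.00 for all features. With the block, 3 of 15 members (CTSS, HLA.DOA and HLA.DOB) had an unadjusted p under 0.05 in the lower direction, against 3.25% of all features, and none in the higher direction (1.44% of all features). HLA.DOA and CTSS were lower in 5 of 5 animals, as were 3.45% of all features, and no member was higher in all 5, as 2.23% were. At week 18, 6 of 15 members were negative (49.8% of all features) and the median was 0.08. HLA.DOB was then lower in 5 of 5 animals (3.49% of all features) and had the only member p under 0.05 with the block (3.78% of all features in the lower direction and 2.07% in the higher), while HLA.DPB1 and CD74 were higher in 5 of 5 (3.04%). Between week 12 and week 18, 13 of 15 members had a positive log2 fold change, with a median of 0.15, where 51.1% of all features were negative. None had a p under 0.05 with the block, as 1.01% of features lower and 1.16% higher had. None was higher or lower in all 5 animals, as 2.99% and 2.87% of all features were. The animals differed in this step: 14 of 15 members were higher in Z13076 (median change 0.96), 14 in Z15339 (0.28) and 11 in Z15228 (0.17). In Z15303 and Z15408, 12 and 11 of 15 were lower (medians −0.15 and −0.12). Many members varied together, as described below, so these counts are not of independent genes.

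**Figure D2:**
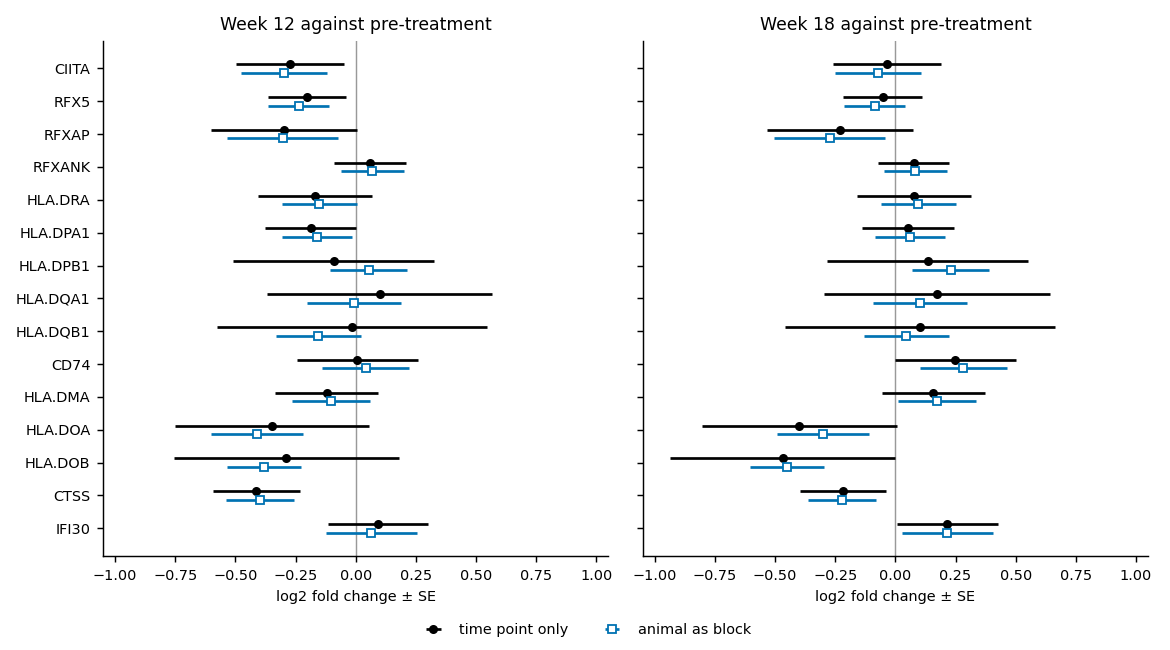
Log2 fold change ± SE of each member at week 12 (left) and week 18 (right) against pre-treatment, from edgeR on 15 libraries with the time point only (filled circles) and with the animal as a block (open squares). The block shortens the error bars most for HLA.DPB1, HLA.DQA1, HLA.DQB1 and HLA.DOB, and at week 12 the lowest values with the block are those of HLA.DOA, CTSS and HLA.DOB.

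Among the regulators, CIITA was at 37.4 CPM in Z15228, 38.9 in Z13076, 44.1 in Z15339, 36.0 in Z15303 and 64.4 in Z15408 before treatment. At week 12 it was at 49.1, 32.3, 26.6, 28.5 and 43.1 CPM in the same order, and at week 18 at 51.9, 63.0, 31.9, 27.9 and 35.4 CPM. Its log2 fold change was −0.27 ± 0.22 (SE) at week 12 (lower in 4 of 5 animals, adjusted p = 1.0) and −0.04 ± 0.22 at week 18 (lower in 3 of 5). With the block these were −0.30 ± 0.18 and −0.07 ± 0.18. The animals were also split into sets by date. In the 3 animals of shared dates, CIITA differed from pre-treatment by a mean log2 of −0.47 at week 12 and −0.50 at week 18. In the other 2 it differed by −0.01 and 0.53. The values of these sets did not overlap at either time, though at week 12 Z13076, at −0.30, lay beside Z15303 of the shared dates, at −0.32. How many of all features separate these small sets in this way was not counted.

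RFX5, the DNA-binding subunit, had means of 98.1 ± 12.0 (SD, n = 5), 84.4 ± 19.9 and 93.1 ± 20.1 CPM at the 3 times. Its log2 fold change was −0.20 ± 0.16 at week 12 and −0.05 ± 0.16 at week 18. With the block these were −0.24 ± 0.13 and −0.08 ± 0.13. The mean within-animal difference of RFX5 at week 12 was −0.47 in the animals of shared dates and 0.13 in the others. RFXANK had means of 50.4 ± 8.36, 52.4 ± 5.23 and 52.8 ± 6.05 CPM and log2 fold changes of 0.06 ± 0.15 and 0.08 ± 0.15. RFXAP was at 2.14 to 7.08 CPM, and its log2 fold changes were −0.30 ± 0.30 and −0.23 ± 0.30. With the block they were −0.30 ± 0.23 and −0.27 ± 0.23, and it was lower in 4 of 5 animals at both times.

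Of the chains that bind peptide, HLA.DRA was at 3436 CPM in Z15228, 2447 in Z13076, 1760.3 in Z15339, 2075 in Z15303 and 2304 in Z15408 before treatment. At week 12 it was at 3025, 1417, 1683, 2107 and 2487 CPM in the same order, and at week 18 at 3598, 2796, 2187, 1732 and 2376 CPM. Z15228 was highest at every time, and Z13076 stood apart by its low value at week 12, which was not seen at week 18. The log2 fold change of HLA.DRA was −0.17 ± 0.24 (fold 0.888) at week 12 and 0.08 ± 0.24 (fold 1.06) at week 18, less than 1 SE in each case.

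HLA.DPA1 had log2 fold changes of −0.19 ± 0.19 and 0.05 ± 0.19, and −0.16 ± 0.15 and 0.06 ± 0.15 with the block. HLA.DPB1 had −0.09 ± 0.42 and 0.13 ± 0.42 without the block and 0.05 ± 0.16 and 0.23 ± 0.16 with it, so that its sign at week 12 depended on the model. HLA.DQA1 had 0.10 ± 0.47 at week 12, or −0.01 ± 0.20 with the block, and 0.17 ± 0.47 at week 18. HLA.DQB1 had −0.02 ± 0.56 and 0.10 ± 0.56. For these chains a change of the size of the standard error, 0.15 to 0.20 on the log2 scale with the block, could not be resolved with 5 animals.

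CD74 was at 13679 CPM in Z15228, 12268 in Z13076, 6172 in Z15339, 9415 in Z15303 and 8296 in Z15408 before treatment. At week 12 the values were 13829, 6692, 7452, 10458 and 11949.6 CPM, and at week 18 they were 16527, 12715, 9914, 9416 and 10785 CPM, in the same order. Its log2 fold change was 0.01 ± 0.25 at week 12 and 0.25 ± 0.25 (fold 1.19) at week 18. With the block the latter was 0.28 ± 0.18 (adjusted p = 0.89). Although CD74 was higher than before treatment in every animal at week 18, the excess was only 0.03 on the log2 scale in Z15303 and 0.72 in Z15339.

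HLA.DMA, a subunit of the peptide exchange factor DM, had means of 353 ± 81.2, 326 ± 88.1 and 394 ± 79.9 CPM and log2 fold changes of −0.12 ± 0.21 and 0.16 ± 0.21. The subunits of its inhibitor DO had lower values after the first sample in most animals. HLA.DOA was at 73.7 CPM in Z15228, 26.6 in Z13076, 36.5 in Z15339, 39.0 in Z15303 and 26.4 in Z15408 before treatment, and at 70.0, 15.3, 19.9, 36.5 and 19.4 CPM at week 12. At week 18 it was at 46.1, 36.2, 24.7, 28.4 and 19.0 CPM. The log2 fold change with the block was −0.41 ± 0.19 at week 12 (adjusted p = 0.982) and −0.30 ± 0.19 at week 18, when Z13076 stood above its own first sample and the other 4 below theirs.

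HLA.DOB was at 66.5 CPM in Z15228, 17.4 in Z13076, 80.6 in Z15339, 65.4 in Z15303 and 82.7 in Z15408 before treatment. At week 12 it was at 48.6, 9.28, 55.1, 54.4 and 84.3 CPM, and at week 18 at 36.3, 16.2, 58.4, 45.7 and 65.5 CPM. Z13076 had the lowest value at each time and Z15408 the highest. The log2 fold change with the block was −0.38 ± 0.15 at week 12 (adjusted p = 0.86) and −0.45 ± 0.15 (fold 0.733) at week 18 (adjusted p = 0.62). Without the block it was −0.29 ± 0.47 and −0.47 ± 0.47. Within dates, its mean difference at week 18 was −0.37 in the 3 animals that share them and −0.54 in the other 2.

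The balance of DO to DM transcripts was looked at after these values had been seen, and is given as a description. The HLA.DOB count as a percent of the HLA.DMA count, a ratio that does not depend on library scaling, was 14.9 in Z15228, 4.08 in Z13076, 30.5 in Z15339, 19.6 in Z15303 and 28.3 in Z15408 before treatment. It was 11.7, 4.16, 22.7, 15.5 and 21.1% at week 12 and 7.49, 3.54, 18.1, 15.04 and 16.3% at week 18. In 5 of 5 animals the ratio at week 18 was below that before treatment and below that at week 12. The step from week 12 was small in Z15303 (log2 −0.044), with 305 and 269 HLA.DOB counts. In Z13076 it rested on 77 HLA.DOB counts at week 12 and 136 at week 18. Whether these steps exceed counting error was not tested. The mean log2 changes were −0.62 ± 0.32 (SD, n = 5) and −0.32 ± 0.22. From week 12 to week 18 HLA.DOB itself changed by a mean log2 of −0.03 and was lower in 3 of 5 animals. HLA.DMA changed by 0.30 and was higher in 4 of 5, so that step came mostly with the denominator. How often ratios of other genes were lower in 5 of 5 animals was not counted. For HLA.DOA the same ratio changed by −0.51 ± 0.54 at week 18 and was lower in 4 of 5 animals, the exception again being Z13076.

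**Figure D3:**
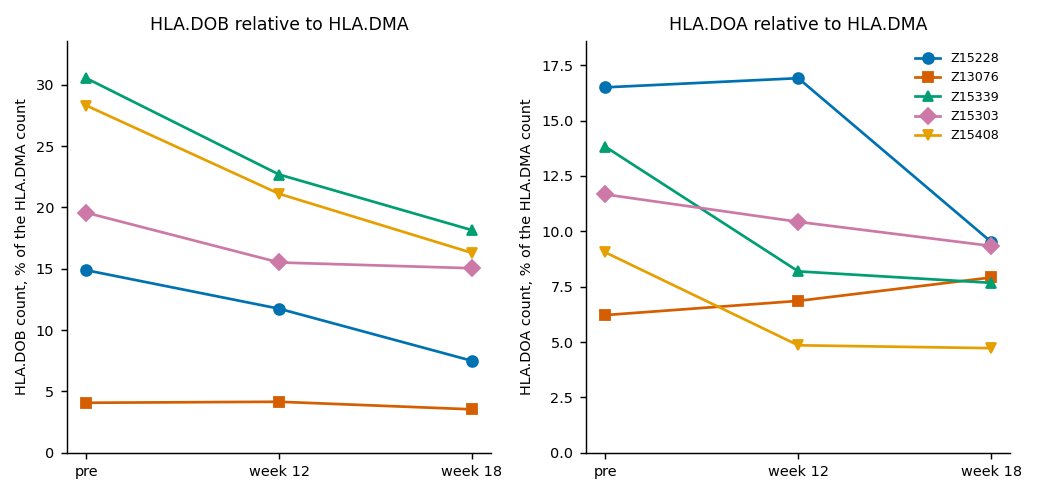
Count of HLA.DOB (left) and HLA.DOA (right) as a percent of the HLA.DMA count in the same library, by time point, with a line for each animal. The HLA.DOB ratio is lowest at week 18 in all 5 animals, and that of Z13076 stays between 3.54 and 4.16%. In Z15303 it is 15.5% at week 12 and 15.04% at week 18, a small step. A higher HLA.DMA count also lowers this ratio.

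CTSS was at 437 CPM in Z15228, 516 in Z13076, 381 in Z15339, 506 in Z15303 and 729 in Z15408 before treatment. At week 12 it was at 405, 365, 310.4, 404 and 417 CPM, and at week 18 at 414, 644, 353, 367 and 385 CPM. Before treatment Z15408 was highest, and the other 4 animals lay between 381 and 516 CPM. Its log2 fold change of −0.41 ± 0.18 (fold 0.751) at week 12 was the only one of a member with p under 0.05 without the block (adjusted p = 1.0). With the block it was −0.40 ± 0.14 (adjusted p = 0.769). At week 18 it was −0.22 ± 0.18 and lower in 4 of 5 animals.

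IFI30 had means of 591 ± 96.0, 630.3 ± 210.1 and 685 ± 97.0 CPM. At week 12 its within-animal log2 differences ran from −1.004 in Z13076 to 0.86 in Z15408, the widest range among the members other than HLA.DQA1. The log2 fold changes were 0.09 ± 0.21 and 0.22 ± 0.21. In Z15408 the count of CTSS was 1.30 times that of IFI30 before treatment and 0.449 and 0.505 times that at weeks 12 and 18.

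Seen by animal, the week 12 values fell into different patterns. A group of 8 members (HLA.DRA, HLA.DPA1, HLA.DPB1, HLA.DQA1, HLA.DQB1, CD74, HLA.DMA and IFI30), formed after their values were seen because they moved together, was lower than before treatment in Z13076, by 0.78 to 1.31 on the log2 scale. They were also all lower in Z15228 but by at most 0.30. In Z15408 all 8 were higher, by 0.24 to 0.86, and in Z15339 and Z15303 6 and 7 of the 8 were higher. By week 18 Z13076 had returned, with changes of −0.11 to 0.20 from pre-treatment. In the animals of shared dates the mean difference of these 8 members at week 12 was 0.08 to 0.48, and in the other 2 it was −0.45 to −0.78. Without Z13076 the log2 fold changes at week 12 with the block were 0.26 for CD74, 0.31 for IFI30 and −0.01 for HLA.DRA, and still no member passed.

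Markers of other cell types moved in the same libraries. The monocyte score (mean log2 CPM of 19 genes such as CD14 and LYZ) of Z13076 was 0.60 lower at week 12 than before treatment and its dendritic cell score (9 genes such as CD1C and FLT3) 0.98 lower. Over the 5 animals the monocyte score differed by −0.09 ± 0.35 (SD, n = 5) at week 12 and 0.22 ± 0.32 at week 18. The summed CPM of the monocyte list was 3475 to 5699 before treatment, 3603 to 5664 at week 12 and 4011 to 7284 at week 18. The part of these cells in the class II values was not tested.

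The B-cell score came from 16 B-cell genes that the study does not name as underexpressed (such as CR2 and FCER2). It was lower in 5 of 5 animals at both times, by 0.56 ± 0.18 at week 12 and 0.50 ± 0.17 at week 18. This score uses the same libraries as the study's own B-cell results and is not independent of them. The summed CPM of that list, over 18 genes in the table, was 477 to 867 before treatment, 444 to 720 at week 12 and 485 to 694 at week 18. Much of this sum was FCMR, at 222 to 530 CPM, which was lower in 3 of 5 animals at week 12 (log2 fold change −0.10 ± 0.11 with the block). A second list of 12 B-cell genes that the study drew from these libraries, and which is no independent evidence, was lower by 0.99 ± 0.18 and 1.06 ± 0.42. In bulk RNA, fewer cells of a type cannot be told from less RNA per cell.

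**Figure D4:**
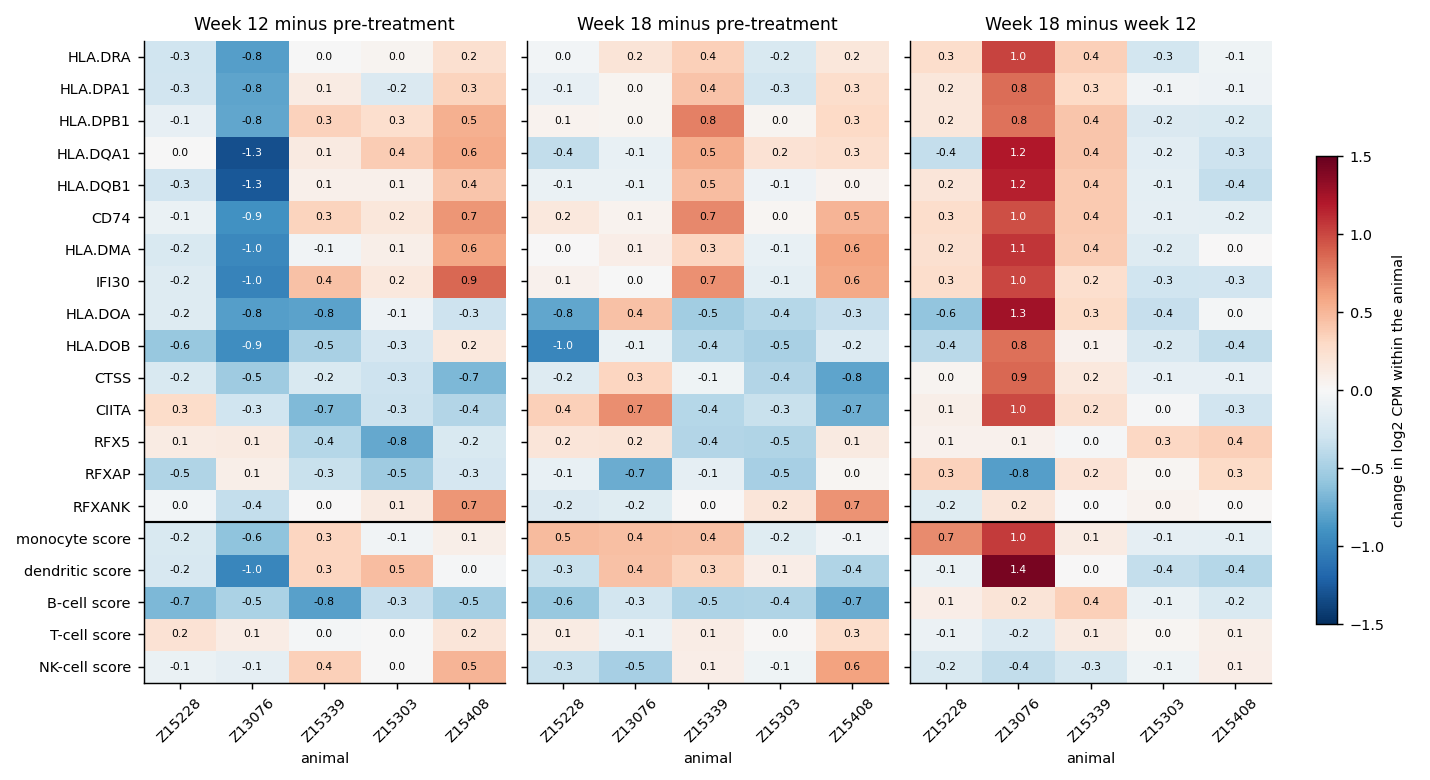
Change in log2 CPM within each animal (columns) for the 15 members and, below the line, 5 cell marker scores, for week 12 and week 18 against pre-treatment and week 18 against week 12. Blue is lower and red higher, on a scale from −1.5 to 1.5. The 8 top members of Z13076 are 0.78 to 1.31 lower at week 12, while its B-cell score is lower by 0.47.

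After the mean of each animal was taken out, the 15 libraries showed which members varied together. These coefficients are descriptions over libraries that share animals, and carry no test. The 8 members named above were grouped because they moved together in these libraries, so high coefficients with each other were built in. Over their 28 pairs the Pearson coefficients were 0.83 to 0.98. With the monocyte score the 8 had 0.54 to 0.84, and with the dendritic cell score 0.66 to 0.82. Their coefficients with the B-cell score were −0.18 to 0.24. Without Z13076 the coefficients among them were 0.49 to 0.97. Those with the monocyte score were then −0.03 to 0.62, with the dendritic cell score −0.05 to 0.51 and with the B-cell score −0.54 to 0.07, so that a part of the likeness rested on that animal.

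Another set, HLA.DOA, HLA.DOB and CTSS, was picked for its lower week 12 values. The B-cell score was also lower in 5 of 5 animals at week 12, so positive coefficients with it were in part built in. In the order named they had coefficients of 0.66, 0.72 and 0.72 with the B-cell score, and 0.80, 0.74 and 0.84 without Z13076. With the monocyte score they had 0.25, 0.19 and 0.50, and −0.62, −0.44 and 0.02 without Z13076. With the dendritic cell score they had 0.58 to 0.64, and 0.09 to 0.22 without that animal. HLA.DOA and HLA.DOB had a coefficient of 0.86 with each other (0.84 without it). HLA.DOB had 0.92 with a plasma cell score of 4 genes (0.93 without it). Scores of other cells had coefficients of similar size: HLA.DOA had 0.71 with a granulocyte score of 5 genes. CTSS had 0.63 with that score and −0.78 with a T-cell score of 14 genes.

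CIITA was not among those that varied with the chains. Its coefficients with the 8 members were 0.01 to 0.39, and −0.61 to −0.25 without Z13076. It varied with CTSS (0.81) and HLA.DOA (0.68), and inversely with the NK-cell score (−0.83), a list of 9 genes such as GZMB and NCAM1. Without Z13076 these coefficients were 0.72, 0.46 and −0.85. RFX5 and RFXAP had negative coefficients with each of the 8 members (−0.50 to −0.07), and RFXANK positive ones (0.38 to 0.64). Without Z13076 those of RFX5 were −0.70 to −0.08, those of RFXAP had both signs (−0.49 to 0.34) and those of RFXANK were 0.25 to 0.68.

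**Figure D5:**
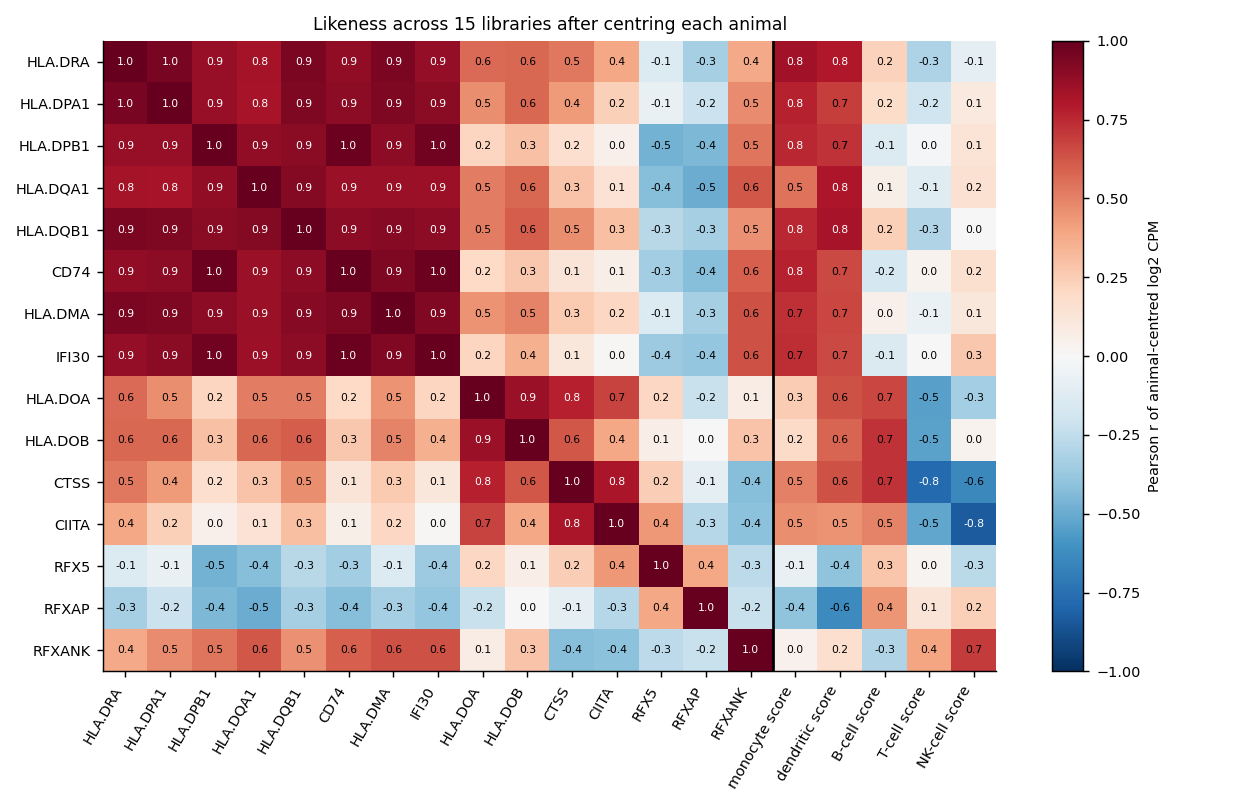
Pearson coefficient of log2 CPM over 15 libraries, after centring each animal on its own mean, between the 15 members and with 5 marker scores (right of the line). The block of dark red holds 8 members, grouped because they moved together, with coefficients of 0.83 to 0.98. CIITA, RFX5 and RFXAP lie outside that group.

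A B-cell or monocyte score was also added to the block model. No member had passed without it, so there was no call to lose. With the B-cell score as covariate the week 12 log2 fold changes were 0.10 ± 0.34 for CTSS, 0.34 ± 0.44 for HLA.DOA and 0.05 ± 0.36 for HLA.DOB. These members were picked for their lower week 12 values, and the B-cell score itself differed between the time points in every animal. A move of their values toward or past 0 with that score was thus in part built in. The standard errors also more than doubled. With the monocyte score the same values were −0.34 ± 0.13, −0.38 ± 0.19 and −0.36 ± 0.15. At week 18 HLA.DOB was at −0.54 ± 0.16 with the monocyte score and −0.06 ± 0.33 with the B-cell score. No member passed with either covariate.

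The features most like CD74 and HLA.DRA across the 15 libraries, after each animal was centred on its own mean, included other members. For CD74 the 5 closest were ENSMNEG00000044119 (0.99), HLA.DPB1 (0.98), IFI30 (0.98), ENSMNEG00000042461 (0.98) and SGF29 (0.96). The 2 Ensembl features carry no symbol in the table. For HLA.DRA they were HLA.DPA1 (0.95), HLA.DMA (0.94), HLA.DQB1 (0.94), VSTM1 (0.94) and RNASE6 (0.93). For CIITA no member was among the 5, which were 2 features without a symbol, LRP11, TRPS1 and TMLHE (0.89 to 0.91). Without centring, some of these features were much less alike: HLA.DQB1 and VSTM1 had 0.03 and 0.47 with HLA.DRA, and LRP11 had 0.16 with CIITA.

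Other genes of the pathway gave no call either. Over all features tested, 49% were negative at week 12 and 49.8% at week 18. Lower in 5 of 5 animals were 3.45% and 3.49% of them. At week 12, 1 gene of each list below was lower in 5 of 5 animals. Most genes named here were picked for a small p. The lists pool genes of opposed roles, and whether a list moved as a whole was not tested. Of 13 tested genes that regulate class II transcription, 10 had a negative log2 fold change at week 12 and 11 at week 18, with medians of −0.10 and −0.18. With the block, IRF8, a transcription factor of B-cells and dendritic cells, was at −0.38 ± 0.14 at week 12 and lower in 5 of 5 animals (adjusted p = 0.765). SPI1, a transcription factor of myeloid and B-cells, was at −0.26 ± 0.15 at week 12. At week 18 EP300, a histone acetyltransferase, was at −0.22 ± 0.10. PRDM1, a repressor of CIITA, was at −0.41 ± 0.19.

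Of 12 tested genes of lysosomal processing, 9 and 10 were negative, with medians of −0.13 and −0.09. SPPL2A, the protease that clears the membrane stub of CD74, was at −0.40 ± 0.19 at week 18, lower in 5 of 5 animals (adjusted p = 0.843). LAMP1, a lysosomal membrane protein, was at −0.18 ± 0.11 at week 12 and lower in 5 of 5 animals. CTSC, a cathepsin, was at −0.20 ± 0.13 at week 12. CST3, an inhibitor of cathepsins, was at 0.39 ± 0.20 at week 18.

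Of 13 tested trafficking genes, 9 and 10 were negative, with medians of −0.04 at both times. MARCH1, the ubiquitin ligase that sends surface class II to degradation, was at −0.41 ± 0.14 at week 12, lower in 5 of 5 animals (adjusted p = 0.732), and at −0.16 ± 0.14 at week 18. RAB7A, a GTPase of late endosomes, was at −0.15 ± 0.10 at week 12. At week 18 CD63, a tetraspanin of the endosomes, was at 0.20 ± 0.12 and MARCH8, a ubiquitin ligase related to MARCH1, at −0.13 ± 0.10.

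Of 8 tested costimulatory genes, 6 were negative at both times, with medians of −0.15 and −0.09. CD40, the receptor for T-cell help on B-cells and other presenting cells, was lowest, at −0.51 ± 0.17 at week 12 and −0.65 ± 0.17 at week 18 with the block, and lower in 5 of 5 animals at both. Its level averaged 17.1, 11.9 and 10.5 CPM at the 3 times. Its adjusted p of 0.309 at week 18 was the smallest of these lists. CD58, an adhesion molecule, was at −0.15 ± 0.11 at week 12, and CD274, which encodes PD-L1, at −0.20 ± 0.20 at week 18. CD86, a ligand of CD28, was at −0.14 ± 0.16 and −0.08 ± 0.15.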

How the data were processed

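PBMC RNA was amplified with SMART-Seq v4 and sequenced. Per the study's methods, the authors aligned reads with STAR 2.7.9a to *Macaca nemestrina* Ensembl release 95 and deposited raw counts per gene from its gene counting mode; strand use is not given in the sources used here. From these counts, edgeR 4.0.16 in R 4.3.3 was run with TMM scaling, filterByExpr (minimum count 10), a quasi-likelihood test over all 15 libraries and Benjamini-Hochberg adjustment. Each standard error was obtained by dividing the size of the log2 fold change by √F. Within-animal differences and marker scores use TMM-scaled log2 CPM with a prior count of 2.

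The same animals were sampled at each time: deviations from the time means correlated by 0.351 or more within an animal (mean 0.551, 15 pairs) and by −0.14 on average between animals (60 pairs), so an animal block is given beside the main fit. The 5 animals are separate donors. The test was checked on simulated counts. Alternatives included DESeq2 1.42.0, limma 3.58.1, other scalings and filters, marker scores as covariates, the 3 animals of shared dates, and each animal left out. Likeness without an animal, each time point on its own and the DO to DM ratio were added after seeing the data.

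All members are named. A result for an item withheld for evaluation is not reported here. From each pathway list were named the genes past the threshold and the 2 with the smallest p with the block in each comparison with pre-treatment; CD86 and CD3D, and the marker genes given as examples, were added. The members and lists were chosen with earlier results of these data known. No sequence of the genes' build was at hand, so promoter motifs were not analysed here.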

Additional observations from a re-analysis of the deposited data

Results flagged for a closer look

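Among 45 sets of 5 libraries (15 members at 3 time points), 5 had a library whose distance to its nearest neighbour was more than 0.71 of the range, where chance gives about 1 in 20. Before treatment Z15408 was highest in CIITA, at 64.4 CPM with the next at 44.1 CPM, and in RFXAP, at 7.08 CPM with the next at 4.62 CPM. Before treatment HLA.DOA was highest in Z15228, at 73.7 CPM with the next at 39.0 CPM, and HLA.DOB was lowest in Z13076, at 17.4 CPM with the next at 65.4 CPM. HLA.DOB was lowest in Z13076 at the later times too. At week 18 CTSS was highest in Z13076, at 644 CPM with the next at 414 CPM.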

How the results depend on the processing

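The call on the members did not depend on the processing: 0 of 15 passed at an adjusted p of 0.05 in each comparison under every alternative run. The number of other features that passed did. Against 0 features in the main test, DESeq2 without the block called 1 feature at week 12 vs. pre-treatment, DESeq2 with the animal as replicate block called 27, 50 and 8 in the order of the comparisons, and edgeR with that block called 1 and 1 in those with pre-treatment. The 3 animals of shared dates alone, with the block, gave 7 and 7, and leaving out an animal gave 0 to 6 at week 12 and 0 to 17 at week 18, the highest at both times without Z13076, with the block. The smallest adjusted p of a member was 0.133 at week 12 and 0.118 at week 18, both in the 3 animals of shared dates. Scaling by TMM kept all 45 mean levels within 1 SD of those printed.

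Several log2 fold changes changed sign with the model, and the cause was not tested. Some lay near 0 in the main test and others did not. At week 12 CIITA, HLA.DOA and CTSS, at −0.27, −0.35 and −0.41 in the main test, turned positive with the B-cell score as covariate. With the animal as replicate block, HLA.DPB1 and HLA.DQA1 at week 12 vs. pre-treatment became 0.054 and −0.0080, and HLA.DOA at week 18 vs. week 12 became 0.11. The same 3 values were 0.060, −0.0074 and 0.11 with DESeq2 and the block and 0.052, −0.069 and 0.12 with limma-voom. The block changed no other sign and no call of a member. In the 3 animals of shared dates with the block, the week 12 vs. pre-treatment values of HLA.DRA, HLA.DPA1, HLA.DPB1, HLA.DQB1 and HLA.DMA became 0.11, 0.087, 0.39, 0.20 and 0.21, and the week 18 vs. week 12 values of CIITA, HLA.DPB1, HLA.DQA1, HLA.DQB1, CTSS and IFI30 became −0.027, −0.0018, −0.012, −0.033, −0.021 and −0.11. With the B-cell score as covariate, the week 12 values of CIITA, RFXANK, HLA.DRA, HLA.DPB1, HLA.DQB1, HLA.DMA, HLA.DOA, HLA.DOB and CTSS became 0.45, −0.088, 0.20, 0.34, 0.22, 0.11, 0.34, 0.051 and 0.10. The week 18 values of CIITA, RFXANK, HLA.DOA and CTSS became 0.58, −0.058, 0.36 and 0.21, and HLA.DOA at week 18 vs. week 12 became 0.015. With the monocyte score, HLA.DPB1 at week 12 became 0.11, and at week 18 vs. pre-treatment HLA.DRA, HLA.DPA1, HLA.DQA1, HLA.DQB1 and IFI30 became −0.086, −0.082, −0.054, −0.16 and −9.7e-05. At week 18 vs. week 12, HLA.DPB1, HLA.DQA1, HLA.DQB1, CTSS and IFI30 became −0.047, −0.085, −0.059, −0.025 and −0.13.

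Leaving out an animal, with or without the block, carried these values across 0. At week 12 vs. pre-treatment the ranges were −0.063 to 0.18 for RFXANK, −0.19 to 0.25 for HLA.DPB1, −0.15 to 0.26 for HLA.DQA1, −0.31 to 0.071 for HLA.DQB1, −0.15 to 0.26 for CD74, −0.29 to 0.090 for HLA.DMA and −0.14 to 0.31 for IFI30. At week 18 vs. pre-treatment they were −0.29 to 0.15 for CIITA, −0.15 to 0.041 for RFX5, −0.050 to 0.17 for RFXANK, −0.025 to 0.15 for HLA.DPA1, −0.016 to 0.29 for HLA.DQA1 and −0.065 to 0.20 for HLA.DQB1. At week 18 vs. week 12 they were −0.0040 to 0.37 for CIITA, −0.056 to 0.25 for RFXAP, −0.024 to 0.062 for RFXANK, −0.090 to 0.22 for HLA.DQA1, −0.0089 to 0.35 for HLA.DQB1, −0.30 to 0.30 for HLA.DOA, −0.26 to 0.024 for HLA.DOB, −0.017 to 0.27 for CTSS and −0.029 to 0.28 for IFI30. Against pre-treatment, CIITA, RFX5, RFXAP, HLA.DRA, HLA.DPA1, HLA.DOA, HLA.DOB and CTSS stayed negative at week 12 without any one animal. At week 18 RFXAP, HLA.DOA, HLA.DOB and CTSS stayed negative, and HLA.DRA, HLA.DPB1, CD74, HLA.DMA and IFI30 stayed positive. Depth limits the values of RFXAP, which had few counts.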

Other observations

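Read counts on class II chains carry a limit of their own. HLA.DQB1 and HLA.DQA1 had the same count, 231, in the week 12 library of Z13076, and the ratio of HLA.DQB1 to HLA.DQA1 counts was 0.972 to 1.00 in the 3 libraries of Z13076 against 1.52 to 2.29 in the 12 libraries of the other animals. Together with the ratio of the DP chains, this difference between animals held at every time point.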
